A study of Mus musculus with 22 samples.

Results

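The TRIM genes encode a large family of proteins, many of them ubiquitin ligases. Their expression was examined in the mouse hypothalamus 3 h after bacterial lipopolysaccharide (LPS), with and without interleukin-6 (IL-6). Members were all genes of the array annotation whose symbol is Trim followed by a number and at most 1 letter, and which had a probe set listing that symbol alone. This rule gave 58 genes of the 19935 tested, each measured by 1 probe set. Each value is the log2 distance of an array from the gene's own median across the 22 arrays, so arrays can be compared for a gene but levels of different genes cannot. Trim30e-ps1, a pseudogene, falls outside the rule.

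The study set IL-6 knockout (KO) mice beside wild-type (WT) littermates to look for genes that could account for the absent fever of mice without IL-6. All mice were male C57bl6 animals aged 9 to 12 weeks, given 1 injection into the abdomen and perfused with saline before the hypothalamus was taken, which holds the neurons that control fever. The groups were WT after LPS from Escherichia coli at 120 µg/kg (n = 7 arrays), WT after saline (n = 4), KO after the same LPS dose (n = 7) and KO after saline (n = 4). How the Il6 gene was altered is not stated in the labels. Nor do they tie every array to a mouse of its own, and the p-values therefore reflect array-to-array spread, part of which may be technical. Because the values are centred, whether hypothalamic marker genes are present cannot be read from them.

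Most TRIM proteins hold a RING finger, B-box zinc fingers and a coiled coil, and many end in a SPRY domain that binds the target. Some members lack the RING finger, and which of the 58 do was not examined. Interferons induce a subset of the genes, whose products restrict viruses or attach ubiquitin to sensors and adaptors of innate immunity. Other members act on the Toll-like receptor and NF-kB pathways that LPS engages, on chromatin, on microtubules and neurofilaments in neurons, or on muscle fibres and damaged membranes. The 58 genes were sorted broadly by such roles, and the name of a list need not hold for each of its genes. There were 13 interferon-inducible or antiviral genes, 17 other regulators of NF-kB, Toll-like receptor or interferon signalling and 4 chromatin cofactors. The rest were 8 neuronal or cytoskeletal genes, 11 genes of muscle, membrane repair and gut, and 5 germ line or little-known genes.

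The sequences around the gene starts are shown for the 7 genes of the interferon-inducible list that hold the letters described below. They were chosen by these letters, whether or not the gene changed with LPS. They come from RefSeq promoters of GRCm38.p6, which cover 250 bases before to 50 after the annotated start and include 46 of the 58 genes. Capitals mark GAAANN followed directly by GAAA, the core letters of an element through which interferons act. They also mark the reverse complement of these letters, since both strands were searched. The 100 bases before the first listed start of Trim30a and Trim30d, neighbours on chromosome 7, are:
Trim30a, chr7:104465194-104465293 (minus strand): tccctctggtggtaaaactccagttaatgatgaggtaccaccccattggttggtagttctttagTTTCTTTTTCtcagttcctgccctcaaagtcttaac
Trim30d, chr7:104507850-104507949 (minus strand): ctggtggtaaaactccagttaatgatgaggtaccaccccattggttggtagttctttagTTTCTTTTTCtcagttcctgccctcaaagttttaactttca
The core begins at position -36 of Trim30a and -41 of Trim30d, counted from the start, and the 30 bases around it were identical in 30 of 30 positions. A second listed start of Trim30a also carries the core, at position 3. The 30 bases around the core in Trim12a, in its near copy Trim12c and in Trim21 are shown next to those of Trim34a and Trim26:
Trim12a, chr7:104315466-104315495 (minus strand): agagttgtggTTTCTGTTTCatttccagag
Trim12c, chr7:104353359-104353388 (minus strand): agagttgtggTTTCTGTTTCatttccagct
Trim21, chr7:102565450-102565479 (minus strand): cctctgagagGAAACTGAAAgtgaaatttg
Trim34a, chr7:104244457-104244486 (plus strand): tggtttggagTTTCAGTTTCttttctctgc
Trim26, chr17:36836976-36837005 (plus strand): ccgcttccgaTTTCACTTTCcttttctcgg
The windows of Trim21 and Trim26 each hold a second match that overlaps the first and was left without capitals of its own, beginning at positions 20 and -154. Trim12a and Trim12c were identical in 28 of these 30 positions. The core was present in 8 of the 46 genes (17.4%), the above 7 and Trim2, against 3.99% of all 27025 genes with a promoter in the table. Of the 7 genes in the table that changed with LPS in the tests described next, 4 carried it, namely Trim30a, Trim30d, Trim12a and Trim21, and 4 of the other 39 did. Trim25, Trim56 and Trim59 had no match in this window. The palindromic STAT site TTCNNNGAA was found in 5 of 46 genes (Trim15, Trim31, Trim38, Trim45 and Trim46), in 0 of those 7, and in 9.55% of all genes. A match describes these letters and no more, and near copies such as Trim12a and Trim12c were counted as separate genes.

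Facts of the whole series bear on the values as follows. The titles number the arrays from 1 to 22. In a limma fit with the 4 groups and the array range as terms, the range (1 to 11 or 12 to 22) was called for 4286 of all genes. Of 7 WT arrays after LPS 5 had the low numbers, against 2 of 7 KO arrays. Of 4 arrays taken to stand apart, WT saline replicate 1 and WT LPS replicate 5 were high in choroid plexus genes. The other pair, KO saline replicate 2 and KO LPS replicate 3, was high in pituitary genes. The highest mean over 8 choroid plexus markers was 1.04 in WT saline arrays. It was only 0.36 in WT LPS arrays, beside 0.30 in KO LPS arrays. The highest mean over 7 pituitary markers was 1.16 in KO saline and 1.06 in KO LPS arrays. Il6 itself was not lower in arrays labelled KO: after LPS it lay between -0.0991 and 0.28 in WT and between -0.0059 and 0.61 in KO, a difference of 0.17 (SE 0.07, limma adjusted p = 0.397). As the altered part of the gene is not stated, this probe set may lie outside it and check nothing, and KO below means labelled KO. Near-identical copies on chromosome 7, where 10 Trim genes including 6 members lie in 1 run, may share probe signal.

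In WT mice LPS changed 8 of the 58 TRIM genes (limma, adjusted p under 0.05 over all genes), against 1.80% of all genes. The 6 that rose were all of the interferon-inducible list: Trim30a, Trim25, Trim21, Trim12a, Trim30d and Trim56, where 1.42% of all genes rose. That list was drawn up with earlier results of these arrays known and is no independent evidence. Trim59 and Trim36 fell, against 0.376% of all genes. At an unadjusted p under 0.05 there were 10 of 58, against 6.42%. The median difference of the 58 was 0.02, beside -0.01 over all genes, and 34 of the 58 lay above 0. In KO mice 5 of the 58 changed, against 1.34% of all genes. Trim30a, Trim25, Trim21 and Trim56 rose (1.08% of all genes did) and Trim59 fell (0.256%). At an unadjusted p under 0.05 there were again 10, against 5.84%. These 5 passed the test in both genotypes. Averaged over the genotypes the same 8 genes passed as in WT, against 2.76% of all genes, with 6 higher (1.99%) and 2 lower (0.773%), and 17 had an unadjusted p under 0.05 (9.13%). Without the 4 arrays that stood apart 6 were called in WT, where Trim12a and Trim36 were lost, and 5 in KO. Within arrays 12 to 22, where WT has 2 LPS arrays and 1 saline array and KO has 5 and 3, Trim30a alone was called in WT, and Trim25, Trim30a, Trim56 and Trim68 in KO.

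**Figure D1:**
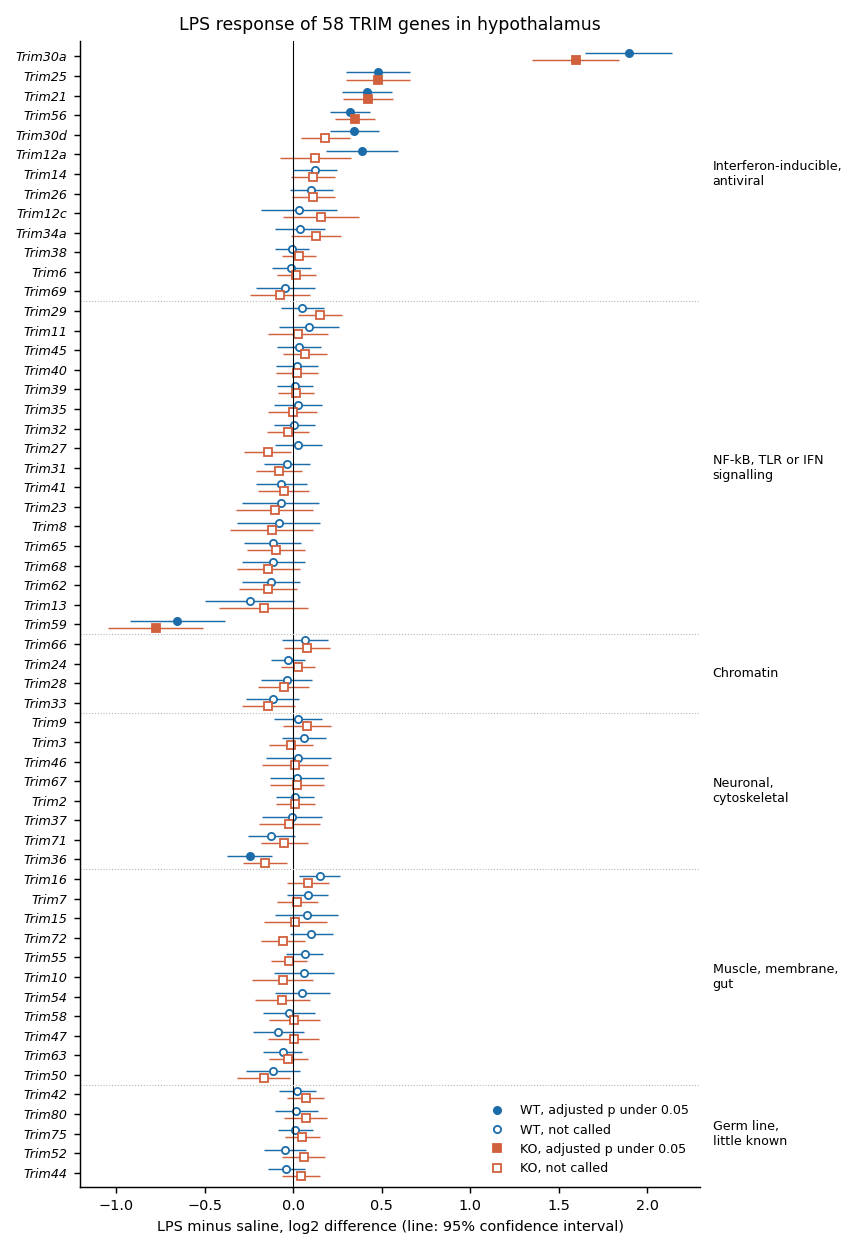
Log2 difference between LPS and saline (horizontal axis) with its 95% confidence interval for the 58 TRIM genes, grouped by role, in WT (blue circles) and KO (orange squares); filled symbols passed an adjusted p under 0.05. Trim30a stands at 1.90 in WT and 1.60 in KO, Trim59 at -0.66 and -0.78, and 50 genes are open in both genotypes.

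Trim30a, which interferon and Toll-like receptor signals induce and whose product restrains NF-kB through the adaptors TAB2 and TAB3, had the largest difference of the family. In the 4 WT saline arrays its values were -1.80, -1.59, -1.50 and -1.69, and in the 7 WT LPS arrays the lowest was 0.02, the median 0.16 and the highest 0.60. In KO the saline values were -1.52, -1.60, -1.40 and -1.63, and the LPS values had a lowest of -0.38, a median of 0.06 and a highest of 0.38. Every LPS array lay above every saline array in both genotypes. Trim30a rose by 1.90 in WT (3.72-fold, SE 0.12, limma adjusted p = 8.09e-11) and by 1.60 in KO (3.02-fold, SE 0.12, limma adjusted p = 2.17e-09), ranks 13 and 16 among the increases of all genes. A further quantile normalization of the deposited values lowered these to 1.13 and 0.90, both still called.

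Trim30d, a neighbouring copy of the same subfamily, moved less. Its WT saline values were -0.21, -0.18, -0.23 and -0.10, and after LPS they ran from 0.04 over a median of 0.16 to 0.28, with no overlap. In KO the saline values were -0.17, -0.12, -0.20 and -0.20, and the LPS values ran from -0.21 over 0.03 to 0.19, so the groups overlapped. The rise in WT was 0.34 (1.27-fold, SE 0.07, limma adjusted p = 0.00324), while the KO difference was 0.18 (SE 0.07, limma adjusted p = 0.448). Within arrays 1 to 11 the KO difference of Trim30d was 0.34 (limma adjusted p = 0.165), and within arrays 12 to 22 it was 0.12 (limma adjusted p = 0.792).

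Trim12a is 1 of the mouse counterparts of TRIM5, a factor that blocks retroviral capsids. It lay at -0.26, -0.27, -0.082 and -0.29 in WT saline arrays, and between -0.069 and 0.48 after LPS with a median of 0.09. The lowest LPS array was just above the highest saline array. The rise in WT was 0.39 (1.31-fold, SE 0.10, limma adjusted p = 0.0337), a call lost on leaving out any of 6 single arrays, WT LPS replicates 1, 3 and 4 and WT saline replicates 1, 2 and 4 (limma adjusted p from 0.0724 to 0.132). In KO the saline values were -0.29, 0.08, 0.11 and -0.20 and the LPS values -0.09 to 0.22, with overlap and a difference of 0.12 (SE 0.10, limma adjusted p = 0.9998). Its near copy Trim12c had differences of 0.03 in WT and 0.16 in KO, neither called. KO LPS replicates 6 and 7 of Trim12c lay at 0.32 and 0.62, while the median of the KO LPS arrays was 0.03.

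Trim25, which attaches ubiquitin to the RNA sensor RIG-I, rose alike in both genotypes. WT saline values were -0.35, -0.37, -0.21 and -0.22, and WT LPS values ran from -0.01 over a median of 0.19 to 0.42. KO saline values were -0.29, -0.34, -0.28 and -0.37, and KO LPS values ran from -0.07 over 0.08 to 0.39. No saline array reached an LPS array of its genotype. The rises were 0.48 in WT (1.40-fold, SE 0.09, limma adjusted p = 0.00142) and 0.48 in KO (1.39-fold, SE 0.09, limma adjusted p = 0.00191).

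Trim21 encodes the cytosolic receptor for antibody-coated particles. Its WT values were -0.46, -0.37, -0.26 and -0.22 after saline and between -0.08 and 0.24, with a median of 0.08, after LPS. Its KO values were -0.51, -0.29, -0.40 and -0.35 after saline and between -0.24 and 0.15, with a median of 0.07, after LPS. The groups did not overlap in either genotype, though KO LPS replicate 3, at -0.24, lay close to the saline arrays. Trim21 rose by 0.42 in each genotype (SE 0.07, limma adjusted p = 0.000428 in WT and 0.000483 in KO). Within arrays 12 to 22 neither call held, with 0.22 in WT (limma adjusted p = 0.849) and 0.35 in KO (limma adjusted p = 0.0777).

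Trim56, an antiviral ligase linked to the DNA-sensing adaptor STING, also rose in both. WT values after saline were -0.27, -0.20, -0.31 and -0.14, and after LPS -0.02 at the lowest, 0.10 at the median and 0.17 at the highest. KO values after saline were -0.30, -0.39, -0.19 and -0.23, and after LPS -0.07, 0.07 and 0.20 in the same order. LPS and saline arrays were apart in both genotypes. The rise was 0.32 in WT (SE 0.05, limma adjusted p = 0.000682) and 0.35 in KO (SE 0.05, limma adjusted p = 0.000306).

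The other 7 genes of the interferon-inducible list, Trim6, Trim12c, Trim14, Trim26, Trim34a, Trim38 and Trim69, passed no test. Their WT differences ran from -0.05 to 0.125 and their KO differences from -0.07 to 0.16. Trim14, a mitochondrial adaptor of antiviral signalling, was highest among them in WT. Its 4 saline arrays, between -0.04 and -0.02, lay below all 7 LPS arrays, which began at -0.01, but the averaged difference of 0.12 was not called (SE 0.04, limma adjusted p = 0.227). Trim26, a ligase that acts on the interferon factor IRF3, had an averaged difference of 0.11 (SE 0.04, limma adjusted p = 0.309). With Trim14, 7 of the 58 genes had WT LPS arrays all above the saline arrays, against 1.63% of all genes, and 4 did in KO, against 1.21%.

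**Figure D2:**
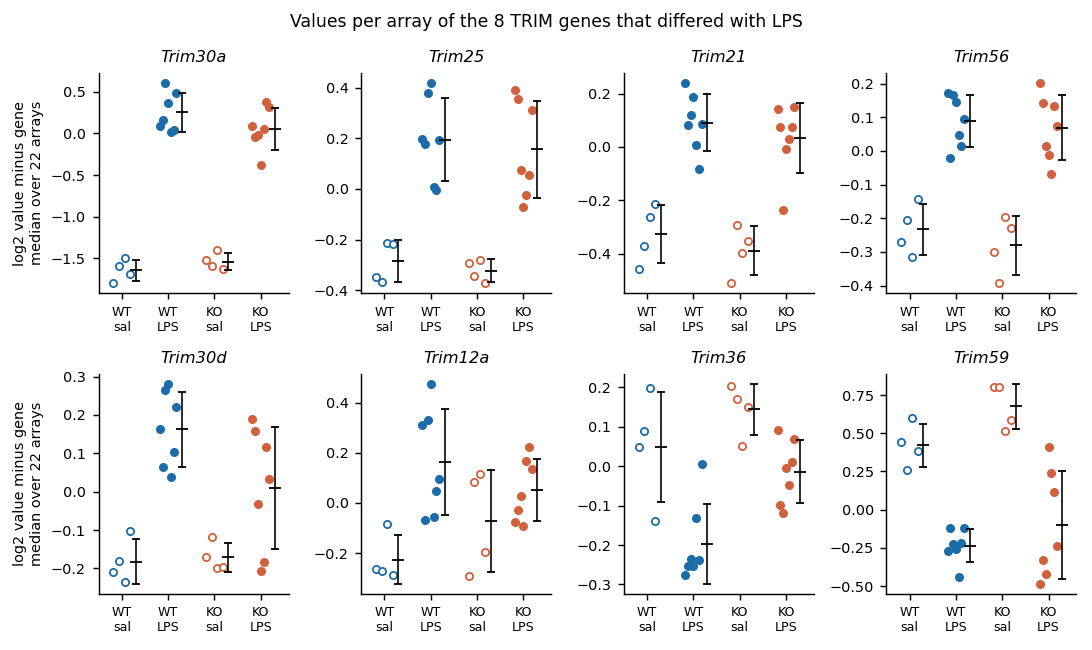
Values of the 8 TRIM genes that changed with LPS, as log2 difference from the gene's median over 22 arrays (vertical axes differ), in WT saline, WT LPS, KO saline and KO LPS arrays; points are arrays and bars mean ± SD. LPS arrays of Trim30a lie at or above -0.38 and saline arrays at or below -1.40, while KO LPS arrays of Trim59 spread from -0.48 to 0.41.

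Trim59 fell with LPS in both genotypes. It encodes a membrane-anchored TRIM protein linked to control of NF-kB and interferon factor signalling. WT saline arrays lay at 0.44, 0.26, 0.60 and 0.38, and WT LPS arrays between -0.44 and -0.12 with a median of -0.22. KO saline arrays lay at 0.80, 0.80, 0.52 and 0.58. The 7 KO LPS arrays were -0.48, -0.33, -0.42, 0.41, 0.24, 0.12 and -0.24, so 3 of them stood above 0, yet below every KO saline array. Trim59 was the 1 member whose LPS arrays all lay below the saline arrays, in WT (against 0.712% of all genes) and in KO (0.446%). It fell by 0.66 in WT (1.58-fold lower, SE 0.13, limma adjusted p = 0.00359) and by 0.78 in KO (1.71-fold lower, SE 0.13, limma adjusted p = 0.000635), ranks 7 and 3 among the decreases of all genes. Within arrays 1 to 11 the KO difference was -1.21 (limma adjusted p = 0.000576, from 2 LPS arrays and 1 saline array), and within arrays 12 to 22 it was -0.61 (limma adjusted p = 0.155). The WT difference was -0.70 and -0.55 in these ranges (limma adjusted p = 0.00024 and 0.767).

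Many markers of brain endothelial cells also fell with LPS. Of 15 measured, 9 were called lower in each genotype, against 0.376% of all genes in WT and 0.256% in KO. Others went the other way: 3 of the 15 lay above 0 in WT (highest 0.31) and 2 in KO (highest 0.22), none called. The mean of all 15 per array lay between 0.20 and 0.34 in WT saline and between -0.16 and -0.07 in WT LPS. In KO it lay between 0.23 and 0.41 after saline and between -0.11 and 0.05 after LPS. Of 15 microglia and macrophage markers, 1 fell in WT (Cx3cr1) and none was called in KO, and none of 10 neutrophil or 9 dividing-cell markers was called in either. In these bulk samples fewer cells of a type and less RNA per cell cannot be told apart, and the part of these markers in the TRIM values was not tested.

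Of the other 16 regulators of NF-kB, Toll-like receptor and interferon signalling, none was called with LPS in the fit of all arrays. Their differences ran from -0.25 to 0.09 in WT and from -0.17 to 0.15 in KO, with medians of -0.02 and -0.07. The lowest in both was Trim13, a ligase of the endoplasmic reticulum membrane, at -0.25 in WT (SE 0.12, limma adjusted p = 0.808). Trim62, which acts on the adaptor CARD9, had an averaged difference of -0.13 (SE 0.06, limma adjusted p = 0.375), and Trim29, a regulator of innate responses in airway macrophages, 0.10 (SE 0.04, limma adjusted p = 0.377). Fits of part of the arrays called 3 of these genes. Trim68 was lower with LPS in KO within arrays 12 to 22 (-0.31, limma adjusted p = 0.0120), beside 0.32 within arrays 1 to 11 (limma adjusted p = 0.259). Within arrays 1 to 11 Trim13 (-0.36, limma adjusted p = 0.0413) and Trim23 (-0.22, limma adjusted p = 0.0383) were lower in the averaged effect, and neither was called within arrays 12 to 22.

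Among the 8 neuronal and cytoskeletal genes, Trim36, which binds microtubules, was called in WT. Its WT saline values were 0.05, 0.09, 0.20 and -0.14, and its LPS values ran from -0.28 over a median of -0.24 to 0.0048. WT saline replicate 4 lay inside the LPS range. Trim36 fell by 0.25 in WT (1.19-fold lower, SE 0.06, limma adjusted p = 0.0285), a call lost on leaving out any of WT LPS replicates 1, 2, 3, 4 and 6 or WT saline replicates 1, 2 and 3 (limma adjusted p from 0.0541 to 0.210). Within arrays 12 to 22, with 2 LPS arrays and 1 saline array, the WT difference was 0.023 (limma adjusted p = 0.9991). In KO the values were 0.20, 0.17, 0.05 and 0.15 after saline and -0.12 to 0.09 after LPS, a difference of -0.16 (SE 0.06, limma adjusted p = 0.501).

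The other neuronal genes had WT differences from -0.12 to 0.06 and KO differences from -0.05 to 0.08. Those of smallest p in the averaged effect were Trim71, an RNA-binding regulator of stem cells, at -0.09 (SE 0.05, limma adjusted p = 0.614), and Trim9, a brain ligase of axon guidance, at 0.05 (SE 0.05, limma adjusted p = 0.878). The 4 chromatin genes lay between -0.12 and 0.07 in WT and between -0.14 and 0.08 in KO. Trim33, of the TIF1 cofactors, had an averaged difference of -0.13 (SE 0.05, limma adjusted p = 0.329; -0.28 and called within arrays 1 to 11, limma adjusted p = 0.0243), and its relative Trim66 one of 0.07 (SE 0.04, limma adjusted p = 0.730).

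The 11 genes of muscle, membrane repair and gut ran from -0.12 to 0.15 in WT and from -0.17 to 0.08 in KO. Trim16, which acts with galectins at damaged membranes, had an averaged difference of 0.12 (SE 0.04, limma adjusted p = 0.200), and Trim50, of gastric acid-secreting cells, one of -0.14 (SE 0.05, limma adjusted p = 0.249). The 5 germ line or little-known genes ran from -0.05 to 0.02 in WT and from 0.04 to 0.07 in KO, with Trim42 at 0.05 and Trim80 at 0.04 in the averaged effect, both uncalled. Over all 50 uncalled genes the medians were 0.01 in WT and 0.01 in KO.

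TRIM proteins whose genes carry other names, and partners in ubiquitin and antiviral signalling, were tested beside the family. Of 8 such TRIM genes only Pml, the organizer of nuclear bodies also known as TRIM19, was called, rising by 0.43 in WT (SE 0.08, limma adjusted p = 0.000987) and by 0.30 in KO (SE 0.08, limma adjusted p = 0.0473). Of 42 partner symbols listed, 34 were measured. Of these 12 rose in WT, against 1.42% of all genes, and 9 in KO, against 1.08%, and none fell in either. Ddx58, which encodes RIG-I, the sensor that TRIM25 modifies, rose by 1.004 in WT and 1.05 in KO, and Ifih1, a related sensor, by 1.18 and 1.27. Herc6 and Ube2l6, which attach the ubiquitin-like protein ISG15, rose by 1.23 and 0.51 in WT and by 1.01 and 0.34 in KO. Usp18, which removes ISG15, rose by 1.35 and 1.30, and the interferon factor Irf7 by 0.91 and 0.98. Tab2, which encodes an adaptor that TRIM30a acts on, fell in the averaged effect by 0.16 (SE 0.04, limma adjusted p = 0.0251). Tab3, which encodes the other such adaptor named above, was at -0.11 in WT and -0.03 in KO, neither called.

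Whether the LPS effect differed between genotypes was tested directly, and no TRIM gene passed (limma, 0 of 58 called, 0 of all genes called, and 0 of 58 at an unadjusted p under 0.05, against 1.64% of all genes). The KO effect minus the WT effect was -0.30 for Trim30a (95% confidence interval -0.65 to 0.05), -0.26 for Trim12a (-0.55 to 0.02) and -0.16 for Trim30d (-0.36 to 0.03). It was -0.12 for Trim59 (-0.50 to 0.26) and 0.09 for Trim36 (-0.09 to 0.27). For Trim25, Trim21 and Trim56 it lay between -0.0017 and 0.03, with intervals inside -0.26 to 0.25. Calls made in WT alone, those of Trim12a, Trim30d and Trim36, were therefore not shown to differ between the genotypes.

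After LPS no TRIM gene differed between KO and WT (limma, 0 of 58 called, against 0.0401% of all genes), and none had groups that did not overlap (0.0752% of all genes had KO all higher and 0.0552% all lower). At an unadjusted p under 0.05 there were 9 of 58, against 11.4% of all genes. Differences ran from -0.20 for Trim8 to 0.26 for Trim13, and all 58 confidence intervals lay within 0.5 of 0 on the log2 scale. Trim36 had the smallest p, a KO value higher by 0.18 (SE 0.05, limma adjusted p = 0.281). Its 7 WT LPS arrays lay between -0.28 and 0.0048 and its 7 KO LPS arrays between -0.12 and 0.09, so the groups overlapped. When arrays were weighted by their quality, Trim36 (0.21, limma adjusted p = 0.0294) and Trim13 (0.35, limma adjusted p = 0.0392) passed, in a fit that called 614 of all genes. Trim30a was at -0.19 in KO relative to WT (SE 0.10, limma adjusted p = 0.465) and Trim30d at -0.15 (SE 0.06, limma adjusted p = 0.361).

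Array number moved with several of these differences. Between arrays 12 to 22 and arrays 1 to 11, 12 of the 58 genes differed, against 21.5% of all genes. In arrays 12 to 22, 3 were higher (10.9% of all genes) and 9 lower (10.6%). None of the 8 LPS-responsive genes was among them, but 8 genes are too few to show that they did not move with array number. Trim25, 1 of the 8, was at -0.14 (limma, unadjusted p = 0.0333, adjusted p = 0.117). Trim23, a ligase with an ARF-type GTPase domain, was higher in arrays 12 to 22 by 0.29, Trim13 by 0.27 and Trim37, of peroxisomes and centrioles, by 0.20. Trim8, which binds the cytokine signalling inhibitor SOCS1, was lower (-0.31), as were Trim46, which organizes microtubules at the base of the axon (-0.23), and the corepressor Trim28 (-0.20). The other 6 lower genes were Trim3, Trim9, Trim11, Trim27, Trim35 and Trim62.

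**Figure D3:**
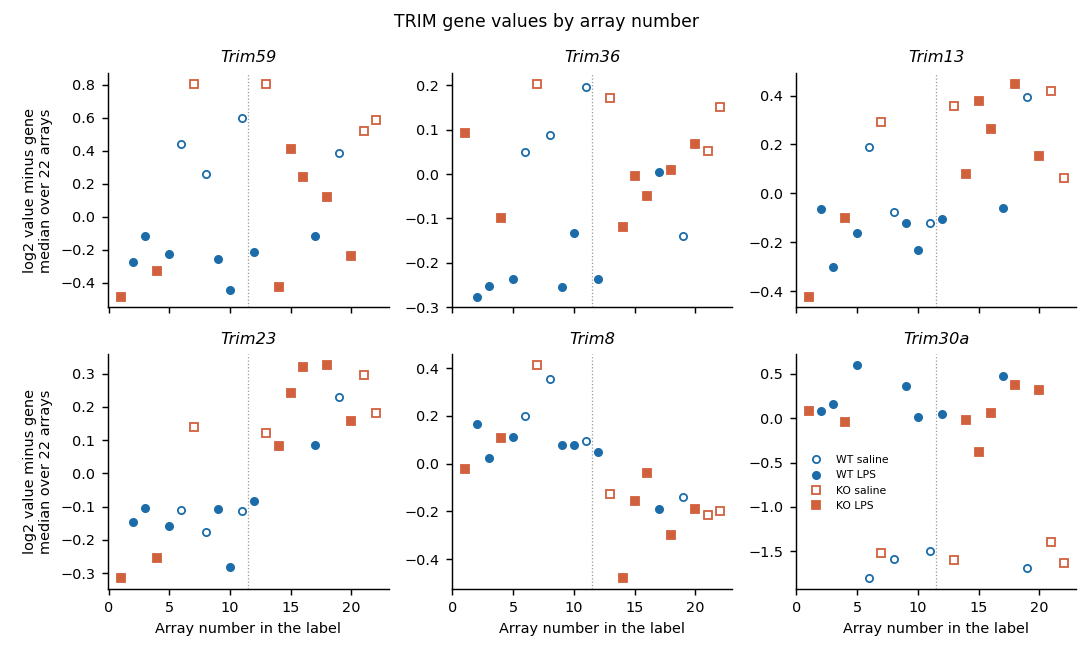
Values of 6 TRIM genes (log2 difference from the gene's median over 22 arrays) against the array number in the label, with arrays of the 4 groups marked and a dotted line between arrays 11 and 12. Trim13 and Trim23 are higher and Trim8 lower in arrays 12 to 22, while Trim30a separates LPS from saline on both sides of the line.

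With array number as a term the genotype difference after LPS shrank for Trim13, Trim23, Trim8, Trim46 and Trim28, which moved with array number. The others that moved are not given with the term. Their differences need not have shrunk, as that of Trim35 was only 0.0044 without it. The difference of Trim13 went from 0.26 (SE 0.10, limma adjusted p = 0.369) to 0.15, with -0.09 within arrays 1 to 11 and 0.35 within arrays 12 to 22. That of Trim23, a higher value in KO by 0.19, went to 0.07, with -0.12 and 0.22 within the same ranges. For Trim8 it went from -0.20 to -0.07, for Trim46 from -0.18 to -0.08 and for Trim28 from -0.14 to -0.05. Trim36 kept 0.19 with the term, 0.23 within arrays 1 to 11 and 0.10 within arrays 12 to 22. None of these was called in the fit with the term or within either range.

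**Figure D4:**
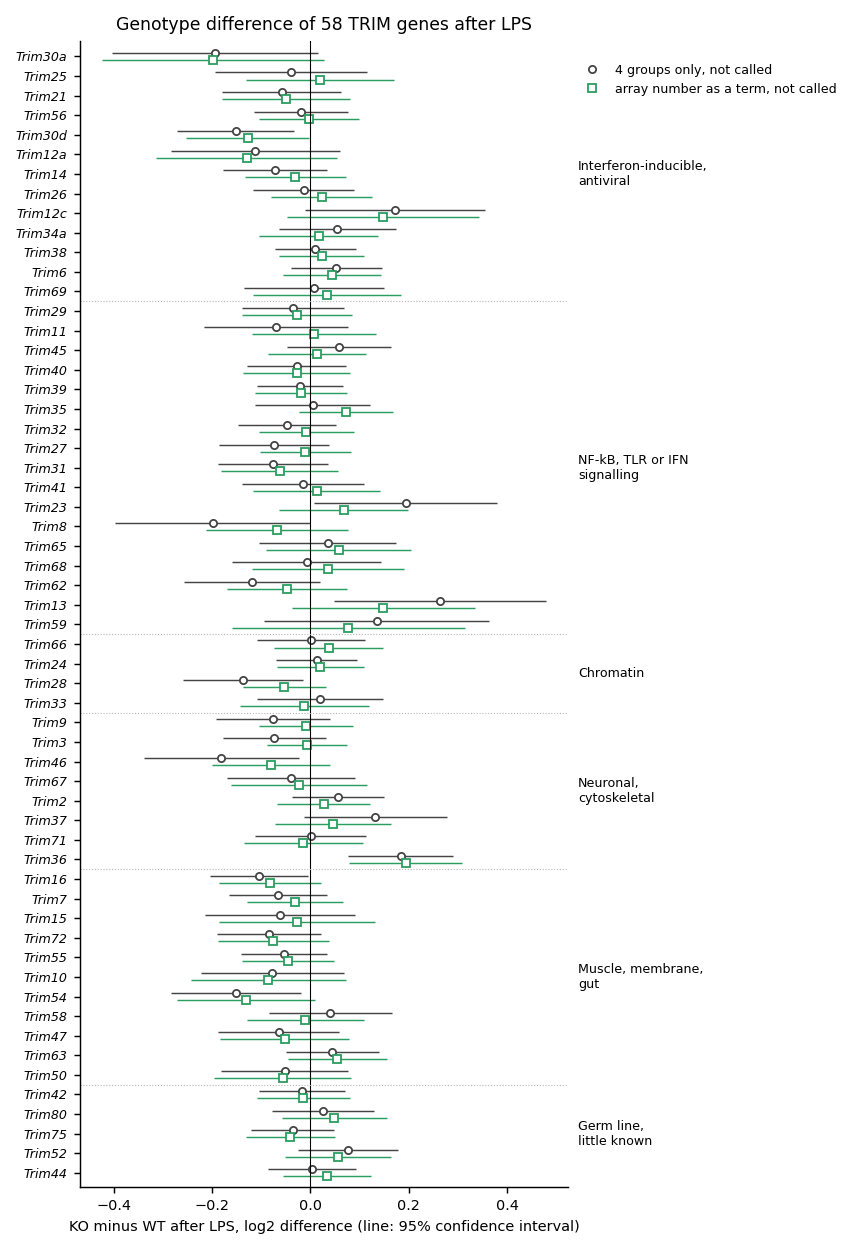
Difference between KO and WT after LPS (log2, horizontal axis) with its 95% confidence interval for the 58 TRIM genes by role, from the fit with the 4 groups only (dark circles) and with array number as a term (green squares); open symbols did not pass an adjusted p under 0.05. No gene is filled, and Trim13, Trim23, Trim8 and Trim46 move towards 0 with the term.

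For each role the 2 genes of smallest p outside the 8 that changed with LPS were named by rule, and those not yet given follow. In KO, Trim54, a muscle RING-finger protein, was at -0.15 (SE 0.06, limma adjusted p = 0.396) and Trim16 at -0.11 (SE 0.05, limma adjusted p = 0.421) relative to WT. Trim37 was at 0.13, Trim12c at 0.17, Trim14 at -0.07, Trim33 at 0.02, Trim52 at 0.08 and Trim75 at -0.04, none with an unadjusted p under 0.05. For Trim12c, KO LPS replicates 6 and 7 (0.32 and 0.62) lay far above the KO LPS median of 0.03.

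After saline none of the 58 genes differed between KO and WT (limma, 0 called and 0 at an unadjusted p under 0.05, against 0.00502% and 5.17% of all genes), and none had groups that did not overlap (1.78% of all genes had KO all higher and 1.19% all lower). The differences ran from -0.16 for Trim46 to 0.26 for Trim59, whose 4 KO saline arrays at 0.52 to 0.80 overlapped the WT saline arrays at 0.26 to 0.60 (SE 0.15, limma adjusted p = 0.840). The interval of 57 of the 58 lay within 0.5 of 0, that of Trim59 reaching 0.56.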

How the data were processed

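The deposited log2 values cover 28815 probe sets and 22 arrays and were made with RMA, per the submitters' processing notes, from 200 ng of labelled RNA per array, per the labels' protocols. The median of the 22 values of a probe set was never further from 0 than 7.02e-07, so the authors had centred the deposited log2 values, and a filter on low values was not possible. The log base is not stated and was taken as 2; the genome build used for the array was not given in the sources used here. Precision is limited by the number of arrays.

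Probe sets were named by the platform annotation and updated by gene ID through RefSeq tables (GRCm38.p6; 21689 of 21780 single-symbol probe sets and all 58 TRIM genes matched). The 1605 probe sets with several symbols and 5430 with none were left out, and the probe sets of 998 genes were averaged. limma 3.58.1 in R 4.3.3 fitted 1 mean per group over all arrays with default empirical Bayes moderation, tested two-sided contrasts, and adjusted p over 19935 genes by Benjamini-Hochberg, with calls at an adjusted p under 0.05. The fit was tested on simulated data with independent normal noise and no effect of array number. That test therefore does not cover such an effect. SE is that of the fit.

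TRIM members, role lists, marker lists and tests were chosen with earlier results of these data known. Named were all called members, the 2 uncalled genes of smallest p per role in the averaged LPS effect and in KO against WT after LPS, and at most 6 called genes of the other lists. Exceptions, chosen after their values were seen, were Trim8, Trim68, Tab2, Tab3, Cx3cr1, Trim30e-ps1, Il6 and the genes called by array number or by a probe set of several symbols. Alternatives were array number as a term, fits within arrays 1 to 11 and 12 to 22, further normalization, robust moderation, array weights, the compared groups alone, single probe sets, other thresholds, and leaving out arrays.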

Additional observations from a re-analysis of the deposited data

Results flagged for a closer look

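Over all 58 genes and 4 groups of 4 or 7 arrays, 13 of 232 sets held an array far from its fellows by Dixon's criterion, which chance alone meets in about 1 in 20 sets. Trim12a lay at -0.082 in WT saline replicate 3, whose nearest fellow was at -0.26. Trim21 lay at -0.24 in KO LPS replicate 3, where the nearest was at -0.0067, and Trim42 at 0.18 in the same array, where the nearest was at 0.01. Trim16 lay at -0.17 in KO saline replicate 4 (nearest -0.04) and Trim23 at 0.23 in WT saline replicate 4 (nearest -0.11), the 1 WT saline array with a number above 11. WT LPS replicate 7, among the 2 WT LPS arrays with a number above 11, was low in Trim28 (-0.18), Trim46 (-0.31) and Trim62 (-0.23), and also in Trim8 (-0.19, nearest 0.02). Trim8 lay at 0.41 in KO saline replicate 1 (nearest -0.13), and Trim68 at -0.062 in the same array (nearest 0.15). Trim2 lay at -0.12 in KO saline replicate 4 (nearest 0.05) and Trim38 at 0.19 in WT saline replicate 3 (nearest -0.02).

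A probe set outside the gene-level tests, which lists Trim5, Trim12c and Trim12a together, was higher after LPS by 0.15 averaged over the genotypes (SE 0.04, limma adjusted p = 0.0420). It was 0.20 in WT (limma adjusted p = 0.0756) and 0.09 in KO, neither called, and its signal cannot be assigned to 1 of the 3 genes.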

How the results depend on the processing

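Within arrays 12 to 22, where WT has 2 LPS arrays and 1 saline array, the count of called TRIM genes fell from 8 to 1 in WT and from 8 to 1 in the averaged effect, Trim30a remaining, and the WT difference of Trim36 turned from -0.25 to 0.023; fewer arrays enter these fits, and a lone saline array is assumed to vary like the others. Array weights raised the KO against WT count after LPS from 0 to 2, Trim13 (0.35, limma adjusted p = 0.0392) and Trim36 (0.21, limma adjusted p = 0.0294), while 614 of all genes were then called; the cause was not tested. Leaving out 1 array at a time gave 6 to 8 called genes in WT, 5 in KO, 7 to 8 in the averaged effect and 0 in the 3 genotype comparisons. In the averaged effect the call of Trim12a was lost without 12 single arrays (limma adjusted p from 0.0544 to 0.133): WT LPS replicates 1, 3 and 4, WT saline replicates 1, 2 and 4, KO LPS replicates 3, 5, 6 and 7, and KO saline replicates 1 and 4. Counts under the other alternatives that were run stayed within 1.5 times: 6 to 8 in WT, 4 to 5 in KO, 7 to 10 averaged and 0 between genotypes. Like counts did not always hold the same genes: within arrays 12 to 22 the KO calls lost Trim21 and Trim59 and gained Trim68, and within arrays 1 to 11 the averaged calls lost Trim12a and gained Trim13, Trim23 and Trim33. No paired analysis was possible because the labels number the arrays from 1 to 22 and no number is shared between groups.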

Other observations

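Other probe sets of the family that stood outside the gene-level count gave small values. Trim30e-ps1, the pseudogene of the Trim30 subfamily, was higher after LPS by 0.13 averaged over the genotypes (SE 0.03, limma adjusted p = 0.00944), with 0.16 in WT and 0.11 in KO, neither called. The probe set listing Trim5 and Trim12c had an averaged difference of 0.07 (SE 0.05, limma adjusted p = 0.800), and the one listing Gm38525 and Trim30b one of 0.02 (SE 0.04, limma adjusted p = 0.978). Those listing Trim60 with Trim61, the Trim43 genes together, and H2aw with Trim17 lay between -0.03 and -0.02.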
